A study of Homo sapiens with 22 samples.

Results

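Expression of 10 genes of the hypoxia-inducible factor (HIF) pathway was examined in leukemia cells given FP54, a PROTAC degrader that recruits the von Hippel-Lindau (VHL) E3 ligase to the m6A demethylase FTO. The genes were taken by symbol from the RNA-seq tables of MOLM-13 and NB4 cells, where all 10 were found among 20411 genes. They comprise the oxygen-regulated HIF subunits (HIF1A and EPAS1), the prolyl hydroxylases that mark these subunits for removal (EGLN1, EGLN2 and EGLN3), and 5 genes known to be induced by HIF (VEGFA, ADM, NDRG1, BNIP3 and ANKRD37). The comparison asks whether occupying VHL with a ligand shows as a HIF response in mRNA.

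In normal oxygen, EGLN enzymes hydroxylate prolines of the HIF alpha proteins, and VHL binds the hydroxylated form and directs it to the proteasome. When hydroxylation or VHL binding fails, HIF alpha accumulates, pairs with ARNT and binds hypoxia response elements whose core reads ACGTG or GCGTG. The genes then induced include those of glycolysis, angiogenesis and mitophagy, and also EGLN1 and EGLN3 themselves, which closes a negative feedback loop. HIF alpha is controlled mainly as protein, which RNA-seq does not measure.

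MOLM-13 is an acute myeloid leukemia (AML) line, and the labels give its genotype as WT. NB4 is an acute promyelocytic leukemia line. In each line, cells grown in culture received either the vehicle DMSO or FP54 at 2 μM for 48 hours, and poly(A) RNA of 3 libraries per treatment was sequenced. The labels do not say whether replicates were separate cultures, so p-values measure the spread between these libraries, which may be technical. In bulk RNA, fewer cells of a type and less RNA per cell cannot be told apart. No VHL ligand without the FTO-binding part was among the 12 libraries, so effects of occupying VHL and of losing FTO cannot be told apart.

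Libraries held 16313481 to 17362476 reads on genes with DMSO and 5836554 to 19207441 with FP54 in MOLM-13 cells, where FP54 replicate 2 was the shallowest. In NB4 cells they held 20662782 to 22349942 with DMSO and 10602388 to 13079401 with FP54. The mRNA of FTO, whose protein is the intended target, had mean RPKM of 1.01 in both groups of MOLM-13 cells and went from 2.73 to 2.03 in NB4 cells. The mean level of 416 olfactory receptor genes, taken as silent genes, was 0.00412 RPKM with DMSO and 0.00640 with FP54 in MOLM-13 cells, and went from 0.00285 to 0.0526 in NB4 cells. HOXA9 and MEIS1, markers of MOLM-13, averaged 21.3 and 6.36 RPKM there and 0.234 and 0.157 in the NB4 table (DMSO), while the granule gene MPO stood at 16.1 and 2170. The granule genes ELANE, PRTN3 and AZU1, listed as promyelocytic markers, went the other way. They averaged 186, 413 and 174 RPKM in MOLM-13 cells and 0.150, 61.0 and 9.96 in the NB4 table, whose cell line rests on the table's name. Of 10 markers of other cell types, none reached a mean of 1 RPKM in MOLM-13 cells (summed 1.31 to 1.59 RPKM with DMSO and 0.938 to 1.62 with FP54), where HBB was at 0. In NB4 cells CD3D and EPCAM exceeded 1 RPKM, the list summed to 14.0 to 15.3 RPKM with DMSO and 19.1 to 22.7 with FP54, and KRT19 was at 0. The part of these markers in the results was not tested.

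Promoter sequences from RefSeq (GRCh38.p14) were read for 8 of the 10 genes, as windows from 250 bases before to 50 after the annotated start. The 8 genes have 10 such windows, since HIF1A and EGLN2 each have a second start. A HIF core, ACGTG or GCGTG on either strand, was present in 7 of the 10 windows (70%), against 48.4% of all 35116 windows and 79.0% of 81 windows of other HIF target genes. ACGTG was present in 4 of the 10 (40%), against 21.4% of all windows and 46.9% of those of the other targets. Counted by gene over any window, 7 of 8 (87.5%) held a core, against 52.4% of all 27305 genes and 93.9% of 49 other targets. The windows of these genes were also richer in CpG (median 35.5 against 14), and both cores contain CpG. The stretches below are those around the cores of 4 genes that rose with FP54 in NB4 cells and of EGLN1 and EGLN2, which were not called in either line. They read 5′ to 3′ on the gene's strand, and capitals mark a core on either strand.
HIF1A (chr14:61695289-61695333, + strand): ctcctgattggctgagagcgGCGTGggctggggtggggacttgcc
ADM (chr11:10304952-10304996, + strand): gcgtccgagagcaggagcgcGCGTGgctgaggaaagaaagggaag
BNIP3 (chr10:131982003-131982086, - strand): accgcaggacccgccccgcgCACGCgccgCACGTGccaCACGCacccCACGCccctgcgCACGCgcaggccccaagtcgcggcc
ANKRD37 (chr4:185396659-185396722, + strand): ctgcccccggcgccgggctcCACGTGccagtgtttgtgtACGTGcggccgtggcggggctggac
EGLN1 (chr1:231422288-231422320, - strand): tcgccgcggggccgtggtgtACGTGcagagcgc
EGLN2 (chr19:40799122-40799167, + strand): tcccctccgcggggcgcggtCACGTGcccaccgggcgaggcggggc

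In these windows ACGTG was seen in BNIP3, ANKRD37, EGLN1 and EGLN2, and only GCGTG in HIF1A, ADM and EPAS1. The palindrome CACGTG carries ACGTG on both strands and is also the E-box read by MYC, MAX and USF proteins. It stood in BNIP3, ANKRD37 and EGLN2, that is, in genes that rose in NB4 cells and in a gene that was not called. BNIP3 held the most core matches of the 8 genes (6, counting both strands), and EGLN3 held none.

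**Figure D1:**
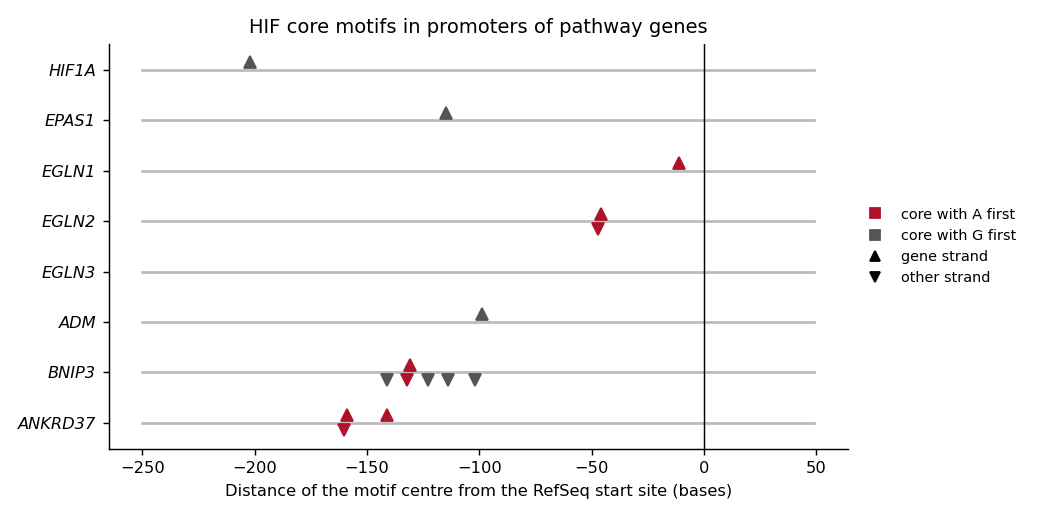
Positions of HIF cores (ACGTG in red, GCGTG in gray; upward triangles on the gene's strand, downward on the other) in 1 promoter window of each of 8 genes (the second windows of HIF1A and EGLN2, not drawn, hold none), with distance from the RefSeq start site in bases on the x axis. BNIP3 carries 6 core matches between -141 and -102, ANKRD37 3 between -160 and -141, and EGLN3 none.

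FP54 was followed by higher mRNA of most of these genes in NB4 cells and of NDRG1 in MOLM-13 cells. A gene was called when an unadjusted p below 0.01 from limma came with a change of 0.5 or more in either direction on the log2(RPKM + 0.1) scale. Genes under a mean of 1 RPKM over the 6 libraries of a line were not tested, which left out EPAS1 and EGLN3 in both lines. In NB4 cells 6 of the 8 tested genes were called higher and 0 lower, where 29.3% of 9853 genes were called, 18.6% higher and 10.7% lower. In MOLM-13 cells 1 of the 8 was called higher and 0 lower, where 18.3% of 9710 genes were called, 9.30% higher and 9.04% lower. At an unadjusted p below 0.05, 7 genes were higher and 0 lower in NB4 cells and 2 higher and 0 lower in MOLM-13 cells. The share of all genes at that threshold was not counted in either line. Limma-voom on recovered reads called 6 higher in NB4 cells and 1 in MOLM-13 cells, and 0 lower. Over all genes it called 1880 of 9816 higher in NB4 cells and 1014 of 9674 in MOLM-13 cells. By an adjusted p below 0.05 alone, 7 of the 8 were higher and 0 lower in NB4 cells, where 51.8% of genes passed (29.8% higher and 22.0% lower). The same rule found 1 of 8 higher and 0 lower in MOLM-13 cells, where 19.2% passed (9.84% higher and 9.32% lower). The FP54 libraries lay wholly above the DMSO libraries for 6 of the 8 genes in NB4 cells, as for 34.3% of genes there, and for 2 of the 8 in MOLM-13 cells, as for 20.2%. All 8 tested genes averaged at least 1 RPKM in both treatments of both lines.

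The median log2 fold change of the 8 genes was 0.77 in NB4 cells, beside 0.07 over all genes tested there. It was 0.21 in MOLM-13 cells, beside 0.0033 over all genes tested. Scaling mattered for the background in NB4 cells, where 1834 genes were called higher and 1050 lower with the RPKM as deposited. Median-ratio scaling gave 1184 higher and 2008 lower and moved the median of all genes to -0.13, and quantile normalization gave 1280 higher and 1363 lower. The 6 calls were then 5 under either scaling. Subtracting the mean level of the olfactory receptor genes from each library left 6 calls.

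**Figure D2:**
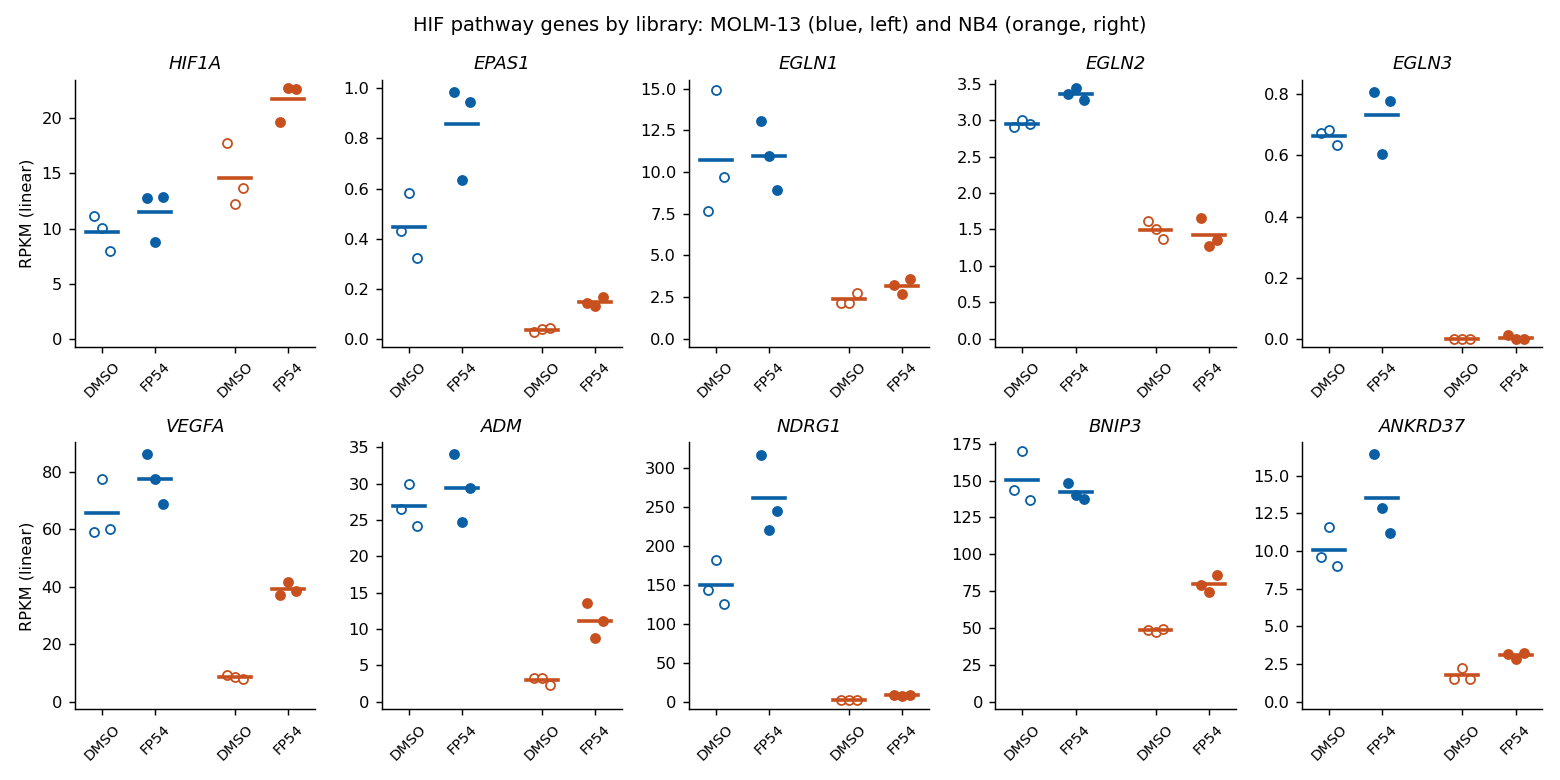
RPKM (linear y axis, own scale per gene) of each of the 10 genes in every library of MOLM-13 (blue) and NB4 cells (orange), with DMSO open, FP54 filled and bars at the group means (3 libraries). The NB4 groups lie apart for VEGFA, ADM, NDRG1, BNIP3, ANKRD37, HIF1A and EPAS1, and EGLN3 is at or near 0 there.

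HIF1A (chr14:61695513-61748259, + strand, hg38, GENCODE coordinates as for the genes that follow) encodes the HIF-1 alpha subunit found in nearly all cells. In NB4 cells its RPKM was 17.8, 12.2 and 13.6 in DMSO replicates 1 to 3 and 19.7, 22.7 and 22.6 in FP54 replicates 1 to 3. The FP54 libraries all lay above the DMSO libraries, of which replicate 1 was the highest. HIF1A rose by 0.59 on the log2 scale (95% confidence interval 0.30 to 0.88, Benjamini-Hochberg adjusted p = 0.00377, limma), from 14.5 ± 2.87 to 21.7 ± 1.74 RPKM (SD, n = 3). The call was lost with median-ratio scaling, where the change was 0.39, and without DMSO replicate 2, where it was 0.47, since both fall under the minimum fold.

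In MOLM-13 cells HIF1A stood at 11.1, 10.1 and 7.92 RPKM with DMSO and 12.8, 8.79 and 12.9 with FP54. FP54 replicate 2, the shallowest library, fell within the DMSO range, and the groups overlapped. The log2 difference of 0.23 (interval -0.20 to 0.66, adjusted p = 0.418 with limma) did not pass.

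EPAS1 (chr2:46293667-46386697, + strand) encodes HIF-2 alpha, a subunit best known from endothelium, kidney and lung. It was too low to be tested in either line. In MOLM-13 cells its RPKM was 0.431, 0.581 and 0.324 with DMSO and 0.986, 0.635 and 0.946 with FP54, from 27 to 138 reads per library. In NB4 cells it was 0.0266, 0.0386 and 0.0430 with DMSO and 0.142, 0.130 and 0.168 with FP54. These NB4 values rest on 4, 6 and 7 reads with DMSO and 11, 11 and 16 with FP54. The groups did not overlap in either line, which held for 37.1% of the tested genes of MOLM-13 and 60.5% of those of NB4 cells. With no filter on low values, the log2 difference of EPAS1 was 0.82 in MOLM-13 cells (adjusted p = 0.103, limma) and 0.86 in NB4 cells (adjusted p = 0.00141, limma), so that it passed in NB4 cells only under that setting. The mean of EPAS1 in NB4 cells moved from 0.0361 to 0.147 RPKM while that of the olfactory receptor genes moved from 0.00285 to 0.0526.

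EGLN1 (chr1:231363751-231422287, - strand) encodes PHD2, the main hydroxylase of HIF in normal oxygen. In MOLM-13 cells it stood at 7.66, 14.9 and 9.68 RPKM with DMSO and 13.1, 11 and 8.90 with FP54. The DMSO libraries spanned the whole FP54 range, and the log2 difference of 0.07 (interval -0.46 to 0.59, adjusted p = 0.864, limma) changed sign when DMSO replicate 1 or FP54 replicate 1 was left out. In NB4 cells EGLN1 was at 2.16, 2.18 and 2.77 RPKM with DMSO and 3.23, 2.67 and 3.57 with FP54. FP54 replicate 2 lay below DMSO replicate 3, so the groups overlapped. The log2 difference of 0.40 (interval 0.08 to 0.72, adjusted p = 0.0407, limma) was under the minimum fold, and it reached 0.51 and was called without DMSO replicate 3 or without FP54 replicate 2. EGLN1 shares 3004 of its 5381 exonic bases (55.8%) with an unnamed gene on the same strand, ENSG00000287856, so its level is uncertain.

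EGLN2 (chr19:40798996-40808434, + strand) encodes PHD1, a hydroxylase that is not known as a HIF target. It stood at 2.91, 3.00 and 2.95 RPKM with DMSO and 3.36, 3.44 and 3.28 with FP54 in MOLM-13 cells. The groups did not overlap, but the log2 difference was 0.18 (interval -0.16 to 0.52, adjusted p = 0.426, limma). In NB4 cells the RPKM was 1.61, 1.51 and 1.38 with DMSO and 1.65, 1.27 and 1.35 with FP54. These overlapped, and the log2 difference was -0.08 (interval -0.39 to 0.24, adjusted p = 0.681, limma). Quantile normalization alone turned this into a call, at -0.56. EGLN2 shares 2012 exonic bases (30.6%) with the readthrough gene RAB4B-EGLN2, which was at 0 in every library. How reads in shared exons were counted is not given in the sources used here, so the level of EGLN2 is uncertain.

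EGLN3 (chr14:33924227-34462774, - strand) encodes PHD3, usually among the most strongly hypoxia-induced hydroxylases. It stood at 0.673, 0.683 and 0.634 RPKM with DMSO and 0.807, 0.606 and 0.779 with FP54 in MOLM-13 cells. FP54 replicate 2, with 26 reads, was the lowest of the 6. In NB4 cells 1 read was counted in FP54 replicate 1 and 0 in each of the other 5 libraries. A count of 0 allows up to 0.0182 to 0.0197 RPKM in the DMSO libraries and up to 0.0312 and 0.0350 in FP54 replicates 3 and 2, counting error only. A change of EGLN3 within these limits was therefore not detectable in NB4 cells at this depth. A rise to the mean of DMSO-treated MOLM-13 cells (0.664 RPKM) would have been seen and was not. With no filter, the log2 difference of EGLN3 in MOLM-13 cells was 0.11 (adjusted p = 0.764, limma).

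The secreted products VEGFA and ADM showed the largest differences between the lines among the 8 tested genes. VEGFA (chr6:43770184-43786487, + strand) encodes the angiogenic growth factor VEGF-A. In NB4 cells its RPKM was 9.37, 8.43 and 7.74 with DMSO and 37.1, 41.6 and 38.7 with FP54. Every FP54 library was far above every DMSO library. VEGFA rose by 2.19 on the log2 scale (interval 1.98 to 2.40, adjusted p = 1.12e-07, limma), or 4.60-fold between group means of 8.51 ± 0.815 and 39.1 ± 2.28 RPKM (SD, n = 3). Over all settings tried its log2 change stayed between 1.99 and 2.26.

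In MOLM-13 cells VEGFA stood at 59.1, 77.7 and 60.2 RPKM with DMSO and 86.3, 77.4 and 68.7 with FP54. DMSO replicate 2 lay within the FP54 range. The log2 difference was 0.24 (interval -0.10 to 0.59, adjusted p = 0.289, limma), so its upper bound lay below the lower bound in NB4 cells.

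ADM (chr11:10305073-10307397, + strand) encodes adrenomedullin, a vasodilator peptide. In NB4 cells its RPKM was 3.21, 3.27 and 2.35 with DMSO and 13.5, 8.69 and 11.1 with FP54. The lowest FP54 library, replicate 2, was above the highest DMSO library. ADM rose by 1.87 on the log2 scale (interval 1.49 to 2.25, adjusted p = 1.29e-05, limma), from 2.94 ± 0.515 to 11.1 ± 2.42 RPKM (SD, n = 3). In MOLM-13 cells it stood at 26.4, 29.9 and 24.2 RPKM with DMSO and 34.1, 24.7 and 29.3 with FP54. The groups overlapped there, and the log2 difference was 0.12 (interval -0.23 to 0.47, adjusted p = 0.617, limma).

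NDRG1 was the gene called higher in both lines. It encodes a cytoplasmic protein induced by hypoxia, iron chelation and differentiation, and lies at chr8:133237175-133302022 on the - strand. In MOLM-13 cells its RPKM was 143, 182 and 125 with DMSO and 317, 220.3 and 245 with FP54. The groups did not overlap, and FP54 replicate 1 was the highest. NDRG1 rose by 0.80 on the log2 scale (interval 0.39 to 1.20, adjusted p = 0.0171, limma), from 150.2 ± 29.2 to 261 ± 50.2 RPKM (SD, n = 3). The adjusted p reached 0.0819 without DMSO replicate 3 and 0.0835 without FP54 replicate 1, while the call at an unadjusted p below 0.01 held in every setting tried.

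In NB4 cells NDRG1 stood at 2.31, 2.03 and 1.86 RPKM with DMSO and 8.09, 6.67 and 9.10 with FP54. All FP54 libraries were above all DMSO libraries. The rise was 1.89 on the log2 scale (interval 1.59 to 2.19, adjusted p = 2.57e-06, limma), or 3.85-fold, from a level that was 72.6-fold lower than in MOLM-13 cells with DMSO.

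BNIP3 (chr10:131967684-131981967, - strand) encodes a mitochondrial receptor that directs mitochondria to autophagy. In NB4 cells its RPKM was 48.6, 47.3 and 49.5 with DMSO and 79.1, 74.2 and 86.1 with FP54. The DMSO libraries were close together, and all FP54 libraries lay above them. BNIP3 rose by 0.72 on the log2 scale (interval 0.53 to 0.90, adjusted p = 5.66e-05, limma). In MOLM-13 cells it stood at 144, 169.7 and 137 RPKM with DMSO and 149, 140.4 and 138 with FP54. All FP54 libraries fell within the DMSO range, and the log2 difference was -0.07 (interval -0.37 to 0.23, adjusted p = 0.735, limma).

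ANKRD37 (chr4:185396021-185400628, + strand) encodes a small ankyrin repeat protein used as a marker of HIF-1 activity. In NB4 cells its RPKM was 1.5, 2.23 and 1.47 with DMSO and 3.14, 2.86 and 3.26 with FP54, from 70 to 107 reads per library. The groups did not overlap, with DMSO replicate 2 nearest to the FP54 libraries. ANKRD37 rose by 0.82 on the log2 scale (interval 0.46 to 1.18, adjusted p = 0.00174, limma), and quantile normalization took it just under the minimum fold, to 0.49. In MOLM-13 cells it stood at 9.58, 11.6 and 9.03 RPKM with DMSO and 16.5, 12.9 and 11.2 with FP54. DMSO replicate 2 lay above FP54 replicate 3, and the log2 difference was 0.41 (interval 0.02 to 0.80, adjusted p = 0.126, limma). ANKRD37 shares 909 of its 2253 exonic bases (40.3%) with UFSP2 on the opposite strand. UFSP2 went from 5.79 to 7.40 RPKM in NB4 cells and from 10.1 to 12.1 in MOLM-13 cells, and how strand was counted is not given in the sources used here.

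**Figure D3:**
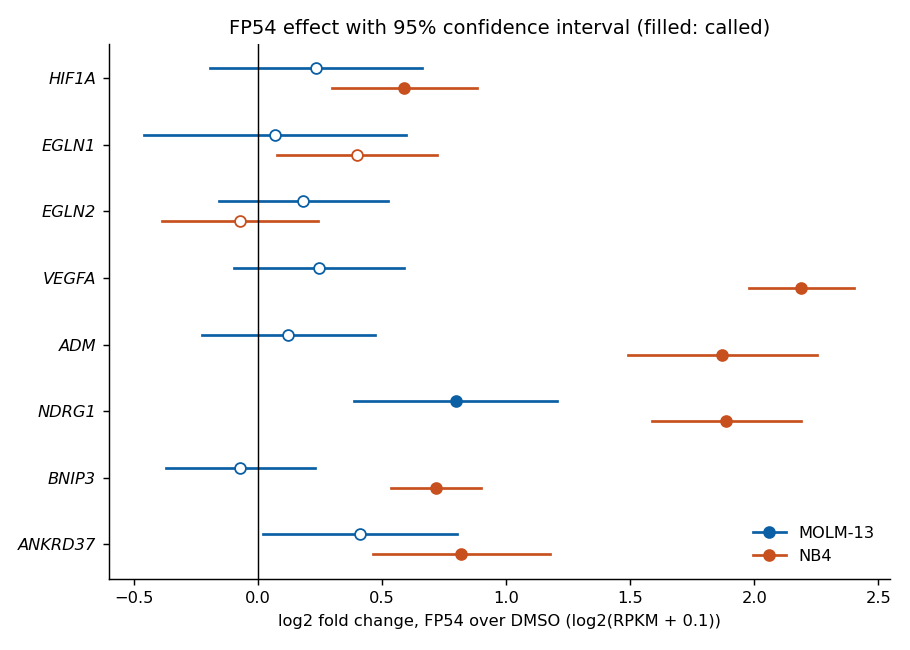
Log2 fold change of FP54 over DMSO with its 95% confidence interval (x axis, log2(RPKM + 0.1) scale) for the 8 tested genes in MOLM-13 (blue) and NB4 cells (orange), filled where called. In NB4 cells VEGFA, ADM and NDRG1 lie between 1.87 and 2.19, and in MOLM-13 cells only NDRG1 is called.

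Whether the effect of FP54 differed between the lines was tested as an interaction in a single limma model of the 12 libraries. The effect was larger in NB4 than in MOLM-13 cells, at an adjusted p below 0.05, for 4 of the 8 genes and smaller for 0, where 14.2% of 8849 genes passed and 10.5% had the larger effect in NB4 cells. VEGFA differed by 1.95 on the log2 scale (interval 1.55 to 2.34, adjusted p = 7.9e-06) and ADM by 1.75 (interval 1.22 to 2.28, adjusted p = 0.000285). NDRG1, which rose in both lines, differed by 1.09 (interval 0.58 to 1.60, adjusted p = 0.00671). BNIP3 differed by 0.79 (interval 0.46 to 1.12, adjusted p = 0.00304).

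For the other 4 genes a difference was not shown, though the intervals do not exclude one. The interaction was 0.36 for HIF1A (interval -0.18 to 0.89, adjusted p = 0.375) and 0.41 for ANKRD37 (interval -0.13 to 0.95, adjusted p = 0.301). It was 0.33 for EGLN1 (interval -0.32 to 0.98, adjusted p = 0.507) and -0.26 for EGLN2 (interval -0.66 to 0.15, adjusted p = 0.396). Leaving out replicate 3 of every group lowered the count of 4 to 2, since the adjusted p of NDRG1 became 0.0577 and that of BNIP3 0.0799. BNIP3 was also at 0.0627 without replicate 1.

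The lines also differed before treatment, where the genes that rose most in NB4 cells were low. The tables of the lines were made separately, so these levels are given without a test. With DMSO, every NB4 library was below every MOLM-13 library for 7 of the 8 tested genes (87.5%), against 34.7% of 8849 genes tested in both lines. The median level was 5.13-fold higher in MOLM-13 cells for the 8 genes, while over all genes the median ratio was 0.927. VEGFA was 7.71-fold and ADM 9.13-fold higher in MOLM-13 cells, and HIF1A alone was lower there (0.667-fold).

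With FP54, VEGFA of NB4 cells reached 59.6% of its mean in DMSO-treated MOLM-13 cells, BNIP3 53.1%, ADM 41.3%, ANKRD37 30.7% and NDRG1 5.30%. For each of these 5 genes the highest NB4 library with FP54 stayed below the lowest MOLM-13 library with DMSO. Ordered by RPKM, a level per length, NDRG1 and BNIP3 led in DMSO-treated MOLM-13 cells and did not separate from each other, followed by VEGFA and ADM. EGLN1, ANKRD37 and HIF1A came next without separating, and then EGLN2, EGLN3 and EPAS1. In NB4 cells with DMSO the order was BNIP3, HIF1A and VEGFA, then ADM, EGLN1, NDRG1, ANKRD37 and EGLN2, whose neighbors overlapped, and last EPAS1 and EGLN3.

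**Figure D4:**
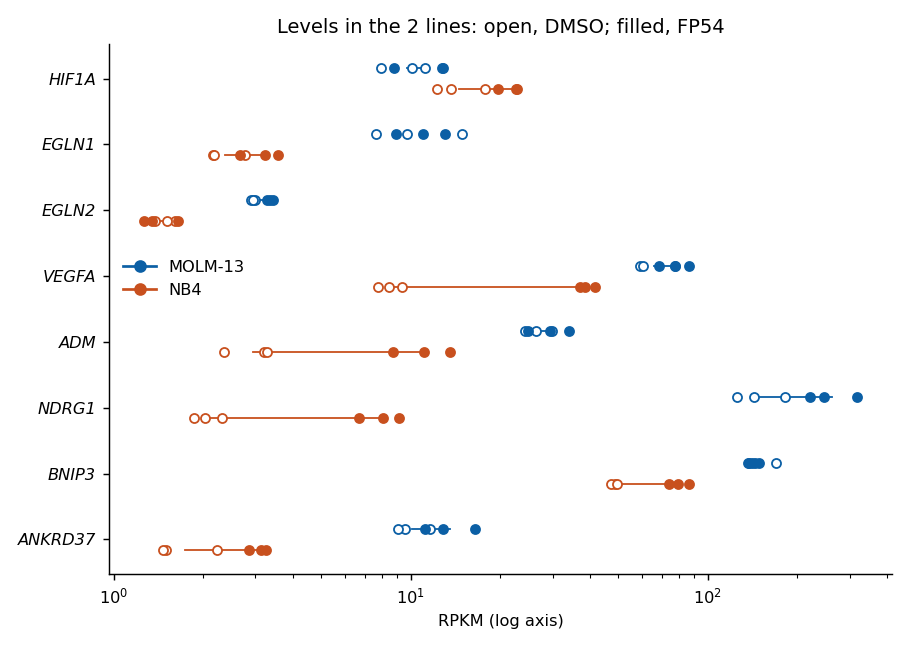
RPKM on a log axis of the 8 tested genes in each library (open, DMSO; filled, FP54) of MOLM-13 (blue) and NB4 cells (orange), with a line between the 2 group means of a line of cells. Except for HIF1A, the NB4 libraries lie to the left of the MOLM-13 libraries of the same gene with either treatment.

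Of 12 other components of the pathway, none was called in MOLM-13 cells. In NB4 cells 3 of 10 tested were called, close to the 29.3% of all genes called there. Among the 12, HIF3A and ARNT2 were below the filter in both lines and at 0 in every MOLM-13 library. Of the 10 tested, 0 were called in MOLM-13 cells by limma, at an unadjusted p below 0.01 with the minimum fold, and 0 by limma-voom on recovered reads. At an unadjusted p below 0.05, 2 were higher (ARNT and HIF1AN) and 2 lower (VHL and ELOC). Without the minimum fold, ARNT, the partner of HIF alpha, had an adjusted p of 0.0498 there, at a log2 difference of 0.48. The NB4 calls were 1 higher and 2 lower. By an adjusted p below 0.05 alone, 5 of the 10 were higher and 3 lower in NB4 cells. Of all genes there, 29.8% were higher and 22.0% lower by that rule. The NB4 groups did not overlap for 9 of the 10, against 60.5% of genes. CITED2, which competes with HIF alpha for the coactivators p300 and CBP and is itself a HIF target, fell by 1.37 on the log2 scale in NB4 cells (adjusted p = 6.62e-07, limma), from 52.7 ± 2.97 to 20.3 ± 0.630 RPKM (SD, n = 3). CREBBP, which encodes CBP, rose by 0.61 (adjusted p = 0.0024, limma), and RBX1, the RING subunit of the VHL ligase, fell by 0.56 (adjusted p = 0.000812, limma). The call of CREBBP was lost with median-ratio scaling (0.41) and that of RBX1 without DMSO replicate 3 (-0.49).

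VHL itself was not called in either line. Its RPKM was 18.6, 18.0 and 20.2 with DMSO and 12.9, 14.0 and 15.4 with FP54 in MOLM-13 cells. In NB4 cells it was 23.3, 22.3 and 20.6 with DMSO and 27.9, 26.6 and 26.9 with FP54. The groups did not overlap in either line, and the log2 difference was -0.42 in MOLM-13 cells (adjusted p = 0.053, limma) and 0.30 in NB4 cells (adjusted p = 0.0118, under the minimum fold). The difference between these effects was 0.72 (adjusted p = 0.00468, limma interaction), and that for CITED2 was -1.16 (adjusted p = 0.000733). These were the 2 interactions past the threshold among the 10 tested genes, where 14.2% of 8849 genes passed.

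The other members of this group were not called in either line in the main fit. HIF1AN, the asparaginyl hydroxylase FIH, was 0.42 higher on the log2 scale in both lines. ARNT was 0.41 higher in NB4 cells, and the coactivator EP300 differed by 0.21 in MOLM-13 and 0.37 in NB4 cells. Of the VHL ligase subunits, the log2 differences in MOLM-13 and NB4 cells were -0.20 and -0.43 for ELOB, -0.37 and -0.23 for ELOC, and 0.13 and -0.16 for CUL2. In NB4 cells the adjusted p (limma) was 0.00423 for HIF1AN, 0.0153 for ARNT, 0.0386 for EP300 and 0.0148 for ELOB, under the minimum fold. ELOB was called in NB4 cells with median-ratio scaling (-0.63) or without DMSO replicate 1 (-0.52) or 3 (-0.50), and EP300 without DMSO replicate 1 (0.53). ARNT was called in MOLM-13 cells with quantile normalization (0.51) or without DMSO replicate 2 (0.61).

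To see whether the 5 targets stood alone, 56 other HIF target genes were counted, of which 47 were tested in each line. In NB4 cells 32 were called higher and 0 lower, where 18.6% of all genes were called higher and 10.7% lower, and their median log2 fold change was 0.82, beside 0.07 over all genes. Counting only the 42 with a mean of at least 1 RPKM in both groups, 27 were higher. No gene of this list was lower at an unadjusted p below 0.05 in NB4 cells (40 were higher). Limma-voom also called 32 higher and 0 lower there, where it called 1880 of 9816 genes higher. CITED2, itself a HIF target but counted above among the pathway components, is not on this list and fell in NB4 cells (-1.37 on the log2 scale). In MOLM-13 cells 3 of 47 were called higher and 5 lower, shares near the 9.30% and 9.04% of all genes, and their median was 0.08, beside 0.0033 over all genes. Of the 44 tested in both lines, 25 had a larger effect in NB4 cells at an adjusted p below 0.05 (limma interaction) and 0 a smaller one. Over all 8849 genes, 10.5% had the larger effect in NB4 cells. The MOLM-13 counts depended on single libraries, with 7 higher without DMSO replicate 2, 5 higher without FP54 replicate 2 or 3, and 3 lower without DMSO replicate 3, FP54 replicate 1 or FP54 replicate 2.

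The 20 glycolysis targets were all tested. In NB4 cells 10 rose and 0 fell, where 18.6% of all genes rose, led by the neuronal enolase ENO2 (3.21 on the log2 scale), the fructose-2,6-bisphosphate regulator PFKFB4 (2.16) and the aldolase ALDOC (1.83). In MOLM-13 cells 2 of the 20 rose and 0 fell, a share near the 9.30% of all genes called higher. They were ALDOA (1.05) and GPI (0.79), enzymes of upper glycolysis. ALDOA and GPI were called in NB4 cells too, by 1.37 and 0.54, though GPI dropped to 0.35 there with median-ratio scaling. ALDOA shares 1639 of its exonic bases with an overlapping gene on the same strand, so its level is uncertain. LDHA, GAPDH, ENO1 and SLC2A1, chosen after their values were seen, were among the 10 that were not called in NB4 cells. Of these, LDHA (0.36, adjusted p = 0.0141, limma) and SLC2A1 (0.34, adjusted p = 0.0121, limma) fell short only of the minimum fold. GAPDH (0.21) and ENO1 (0.20) did not pass either way. By an adjusted p below 0.05 alone, 16 of the 20 were higher and 0 lower in NB4 cells, where 29.8% of all genes were higher.

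Of the 36 remaining targets 27 were tested in each line, and 22 rose in NB4 cells while 0 fell, where 18.6% of all genes rose. Among the 22 that averaged at least 1 RPKM in both NB4 groups, 17 rose. The largest increases were in HMOX1 (5.71), STC2 (4.09) and VLDLR (3.39). HMOX1 encodes heme oxygenase and is also an NRF2 target, STC2 encodes a secreted glycoprotein, and VLDLR encodes a lipoprotein receptor. HMOX1 and STC2 passed the filter only through their FP54 libraries, as did ANGPTL4 and TGFA. In MOLM-13 cells 1 of the 27 rose and 5 fell, where 9.30% of all genes were called higher and 9.04% lower. P4HA1, a collagen prolyl hydroxylase, rose by 0.52. Among the 5, the largest decreases were in STC2 (-2.13), the transferrin receptor TFRC (-0.89) and the carbonic anhydrase CA9 (-0.88). CA9 had 6 to 55 reads per MOLM-13 library and shares 571 exonic bases (35.7%) with ARHGEF39 on the opposite strand, so its level is uncertain. In NB4 cells CA9 was under the filter, at 0.0292 RPKM with DMSO and 0.986 with FP54. The call of P4HA1 was lost in 8 of the settings tried and that of CA9 in 7. STC2 thus moved in opposite directions, since its mean went from 15.1 to 3.41 RPKM in MOLM-13 and from 0.740 to 13.8 RPKM in NB4 cells.

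Outside the naming rule and chosen after their values were seen, DDIT4, BNIP3L and PDK1 were called in NB4 cells and not in MOLM-13 cells. DDIT4, an mTORC1 inhibitor, rose by 2.71 in NB4 cells and differed by 0.11 in MOLM-13 cells. BNIP3L, the mitophagy receptor related to BNIP3, rose by 1.21 in NB4 cells and differed by 0.12 in MOLM-13 cells. PDK1, which keeps pyruvate from mitochondria, rose by 1.08 in NB4 cells and differed by -0.50 in MOLM-13 cells (adjusted p = 0.077, limma). Of the 56 target genes, 44 were tested in both lines. In 40 of these (90.9%) every NB4 library with DMSO lay below every MOLM-13 library with DMSO, against 34.7% of 8849 genes.

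**Figure D5:**
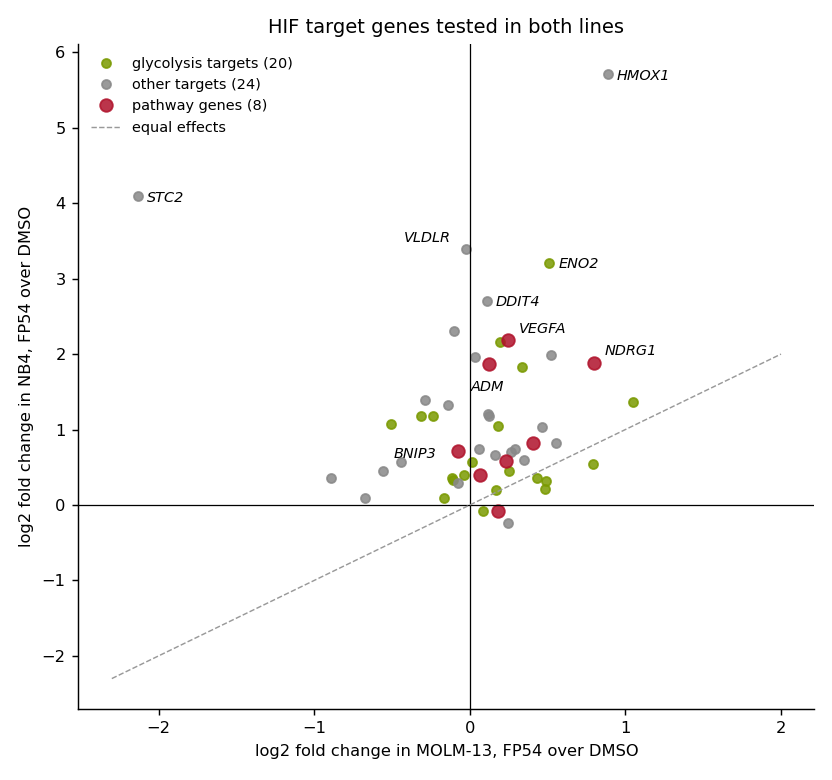
Log2 fold change of FP54 over DMSO in MOLM-13 (x axis) against NB4 cells (y axis) for the 8 genes (red) and the 44 other HIF targets tested in both lines (green, glycolysis; gray, other), with a dashed line of equal effects. Most points lie above the line, with STC2 at -2.13 and 4.09 and HMOX1 at 0.89 and 5.71.

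Several of these targets also respond to ATF4, the transcription factor of the integrated stress response, among them VEGFA, DDIT4, STC2 and VLDLR. In a list of 18 ATF4 target genes, 16 of the 17 tested in NB4 cells were called higher and 0 lower, where 18.6% of all genes were called higher. Counting those with a mean of at least 1 RPKM in both groups, 15 of 16 were higher. The increases were led by VLDLR (3.39), the cystine transporter SLC7A11 (3.02) and the glutathione-degrading enzyme CHAC1 (2.52), which passed the filter only through its FP54 libraries. The median of the 17 was 1.58. In MOLM-13 cells 5 of 18 were called lower, where 9.04% of all genes were, led by PSAT1 (-1.43), TRIB3 (-1.11) and ATF3 (-1.06), and NUPR1 was called higher (1.15). The part of ATF4 in the rise of VEGFA and the other shared genes was not tested. Of the 4 genes named as shared, VLDLR is on the list, and none of the 10 pathway genes is.

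The genes whose log2 values followed VEGFA most closely over the 12 libraries, each line centered on its own mean, were HMOX1, PFKFB4 and ENO2, each with a Pearson r of 0.993 among 8848 genes. PFKFB4 and ENO2 are HIF targets of glycolysis. HIF1A was followed most closely by KDM6A (r = 0.975) and FOXN2 (0.971), neither of which was called in either line. These correlations describe libraries that share treatment groups, so the difference between DMSO and FP54 in NB4 cells enters each of them.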

How the data were processed

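Of the 22 samples in the labels, the 12 RNA-seq libraries were used (3 per treatment in each line). The other 10, of m6A-seq and polysome-seq, were not used here. According to the paper and the submitters' processing notes, the authors trimmed reads with Cutadapt 4.8, removed duplicates, aligned to hg38 with STAR 2.7.11b and counted protein-coding genes with featureCounts 2.0.3. The deposited values are RPKM computed by the authors from those counts. Removal of duplicates can lower the levels of abundant genes, and RPKM depends on the composition of a library.

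Log2(RPKM + 0.1) was fitted with limma 3.58.1 in R 4.3.3 (lmFit, eBayes with a trend) over genes averaging 1 RPKM or more in a line. Calls used the study's cutoff (p below 0.01, log2 fold change of at least 0.5), with Benjamini-Hochberg adjusted p over all genes beside it. Since the deposited values are not counts, limma replaced the study's DESeq2. An exact permutation test of 3 against 3 cannot give p below 0.1. Reads were recovered as RPKM times the exonic length in a later GENCODE release of the same build, and 98.7 to 99.3% of values under 30 reads fell within 0.05 of a whole number, for 20261 (MOLM-13) and 20227 (NB4) of 20329 genes with a length. Limits set by counts of 0 used 3 reads. On data simulated from these libraries, 94% of 200 genes changed by 1.5 were recovered in MOLM-13 (64 false calls among 9618 genes), 98.5% in NB4 (20 among 9745), and 93.7% of 347 for the interaction (26 among 8747). The simulation shuffled the spreads between genes and made no smaller changes, so it does not measure recovery of changes near the cutoff. The labels give no batch. Python 3.11.15, numpy 2.4.6, pandas 2.3.3 and matplotlib 3.10.9 were used for tables and figures.

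The genes, the lists and the naming rule were chosen with earlier results of these data known. Named were the 10 genes, all 12 pathway components, the 3 largest called changes per direction, list and line, and the 3 genes most like HIF1A and VEGFA. A few genes that the rule or the lists hold are not reported here. The HIF and ATF4 lists were written from general knowledge. Alternatives were other pseudocounts, filters, scalings, cutoffs and variance models, a replicate block, limma-voom on recovered reads, subtraction of the olfactory receptor level and leaving out each replicate.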

Additional observations from a re-analysis of the deposited data

Results flagged for a closer look

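The effect of FP54 in NB4 cells exceeded that in MOLM-13 cells by 1.95 on the log2 scale for VEGFA, by a limma interaction over the 12 libraries. For ADM the same difference was 1.75. NDRG1, called higher in both lines, differed by 1.09. BNIP3, whose MOLM-13 groups overlapped, differed by 0.79. All 6 NB4 libraries lay below the MOLM-13 libraries for these 4 genes.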

How the results depend on the processing

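With FP54 replicate 2 of MOLM-13 at 5836554 reads, and with 3 libraries per group, modest changes of low genes were not resolved. Of gene results under alternatives, 1443 kept direction and call, 27 gained and 24 lost the call, and 8 reversed; of counts, 196 stayed within 1.5-fold and 12 moved. The cause was not tested.

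Of the 8 genes, those called higher were 1 in MOLM-13 cells under every alternative and 5 to 7 in NB4 cells, and 0 were called lower in NB4 cells except 1 (EGLN2) with quantile normalization. That setting also gave 1 lower interaction (EGLN2, -0.73), and leaving out a replicate gave 2 to 4 higher interactions. Other HIF targets called higher in MOLM-13 cells were 5 with quantile normalization and 5 at an adjusted p below 0.05 with no minimum fold, and 2 to 7 leaving out a library; those called lower were 3 to 6, and lower interactions 0 to 1. Reversed were EGLN1 in MOLM-13 cells (from -0.15 without DMSO replicate 1 to 0.33 without DMSO replicate 2), BNIP3 there (0.019 without DMSO replicate 2), CREBBP there (-0.011 with median-ratio scaling, down to -0.0647 without FP54 replicate 1) and the HIF1A interaction (from -0.0077 without replicate 2 to 0.56 without replicate 1). No filter gave 4967 genes higher and 1092 lower in NB4 cells.

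Same-numbered libraries did not deviate together (correlations of -0.26, -0.13 and -0.06 in MOLM-13 and -0.14, 0.07 and 0.12 in NB4 cells), so the numbers were not taken as pairs. A replicate block gave 1 and 6 of the 8 genes called higher in MOLM-13 and NB4 cells and 4 interactions, and left 32 other targets higher in NB4 cells.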
